A study of Rattus norvegicus with 16 samples.

Results

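The 10 genes described here encode the hormones, carriers, receptors and first signalling proteins of the insulin, insulin-like growth factor (IGF) and epidermal growth factor (EGF) axes. They are the ligands Igf1 and Egf, the binding proteins Igfbp1, Igfbp3 and Igfbp5, the receptors Insr, Igf1r and Egfr, and the insulin receptor substrates Irs1 and Irs2. Members were taken by gene symbol from the deposited table, in which each of the 10 symbols was found among 35849 genes. Insulin and IGF-I act on related receptor tyrosine kinases that pass their signal to the IRS docking proteins, and IGF binding proteins hold IGF in the circulation and at the cell surface. In the kidney EGF is made by the thick ascending limb and the distal convoluted tubule and is shed into the urine, while its receptor is found along the nephron. Igfbp1 is a liver and kidney gene whose transcription insulin represses, through forkhead factors of the FOXO family.

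RNA sequencing was run on renal tissue of male Sprague Dawley rats, which were 6 to 8 weeks old at the start, with 4 rats in each of 4 groups. Rats of the normal group had citrate buffer and a normal diet. In the diabetic nephropathy (DN) group the rats ate a high-glucose, high-fat diet, were injected with streptozotocin at 45 mg/kg, which kills the insulin-producing beta cells of the pancreas, and were taken into the study at a blood glucose over 16.7 mmol/L. Both sinomenine (SIN) groups were DN rats gavaged with SIN, an alkaloid of the vine Sinomenium acutum, at 20 mg/kg or 40 mg/kg for 8 weeks. By the study's abstract, the rats of the DN group were gavaged with vehicle, and whether normal rats were gavaged is not stated. The DN and SIN rats thus differed from the normal rats in streptozotocin, in diet and in selection by glucose at once, and these cannot be told apart.

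Each rat had between 19616312 and 25217030 estimated counts in all, and the 10 genes had between 81 and 63440, so all of them passed the filter on low counts in every comparison. Spearman correlations between rats, over the genes that passed the filter on low counts, were 0.951 to 0.987. Kidney markers were abundant, with 6 proximal tubule genes summing to between 4011 and 5720 TPM, a read count scaled by gene length and by the total of the rat, in every rat, and none of the 6 was called between DN and normal. DN replicate 3 stood apart, with smooth muscle markers at 225.5 TPM and urothelial markers at 146.2 TPM against lowest DN values of 19.3 and 2.24 TPM. In the normal group, replicate 1 was highest in both, at 36.6 and 70.6 TPM against lowest normal values of 17.6 and 5.43 TPM. Podocyte markers summed to between 194.1 and 251.2 TPM in normal rats and between 111.9 and 196.6 TPM in DN, and adipocyte markers to between 43.4 and 46.1 TPM and between 50.3 and 85.0 TPM. Of the markers tested between DN and normal, 1 of 4 for fibroblasts was called higher and 1 lower, 1 of 4 for leukocytes lower and 1 of 3 for adipocytes higher, while none was called for podocytes, endothelium, smooth muscle, urothelium or adrenal gland. The part of these cell types in the results was not tested. Serial numbers of the libraries run without a gap inside each group, so a library batch and the condition cannot be told apart. Levels of single rats are given in CPM, counts scaled to the total of the rat after that total was adjusted by a normalization factor. A difference is a log2 fold change with its standard error (SE) from the fit. A gene was called at an adjusted p under 0.05 over all genes tested.

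Between the DN and the normal group 4 of the 10 genes were called, with Egf, Igf1 and Igfbp3 lower and Igfbp1 higher in DN. The same rule called 19.5% of all 15775 genes tested, 10.8% as lower and 8.74% as higher, and the 10 genes had a median log2 fold change of -0.05 beside 0.00 for all genes. The receptors and the substrates were not called. At an unadjusted p under 0.05 there were 5 of the 10 genes beside 36.9% of all genes, and 3 of the 10 had groups that did not overlap beside 24.3%. Without DN replicate 3 the calls were Egf, Igf1 and Igfbp3. This comparison asks how the kidneys of the DN group differed from those of the normal group.

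Egf was at 1405, 1523, 1098 and 1105 CPM in the 4 normal rats. In the DN rats it was at 750.4, 502.3, 515.2 and 586.2 CPM. The groups did not overlap, with means of 1283 ± 215 and 588.5 ± 114 CPM (SD, n = 4 each). This is a log2 fold change of -1.12 (SE 0.17), a 2.17-fold lower level, with an adjusted p of 0.00524 by edgeR's quasi-likelihood test. The call held in each of 8 fits that left out 1 rat, between -1.26 and -1.04.

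The table holds a second gene for the same product, LOC108348190, whose record names a predicted pro-epidermal growth factor. It took between 21% and 25.2% of the counts of both genes in a rat, and the 2 genes may share reads, so how the counts were divided between them is uncertain. LOC108348190 fell as Egf did, from 382.6 ± 65.4 to 177.8 ± 43.8 CPM (SD, n = 4 each), with a log2 fold change of -1.10 (SE 0.19, edgeR adjusted p = 0.00803). With the counts of both genes added, the log2 fold change of Egf was -1.11 with an edgeR adjusted p of 0.00566.

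Among markers of the tubule segments that make EGF, Umod, which encodes uromodulin, the main protein of normal urine, was lower in DN. Umod was at 1931 to 2461 TPM in the normal rats and at 893.7 to 1557 TPM in the DN rats, with a log2 fold change of -0.77 (SE 0.16, edgeR adjusted p = 0.0154). It was the only one called of the 7 markers of the thick ascending limb and distal convoluted tubule that were tested. The other 7 of the 8 markers listed, among which Pvalb was near 0, summed to between 632.5 and 912.2 TPM in the normal rats and between 521.7 and 917.3 TPM in the DN rats, which overlapped. All 8 together summed to between 2564 and 3323 TPM in the normal rats and between 1415 and 2471 TPM in the DN rats. Umod was the largest part of that sum, and such sums say little of markers at lower levels. Of the 7 tested, 3 were at an edgeR unadjusted p under 0.05, beside 36.9% of all genes. The median log2 fold change of the 7 was -0.17 beside 0.00 for all genes. In whole tissue, fewer cells of a type and less RNA per cell cannot be told apart, and the part of these markers in the lower Egf was not tested.

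Igf1, the growth factor that IGF-I receptors bind, was at 20.0, 13.3, 28.5 and 31.3 CPM in the normal rats. It was at 13.2, 7.74, 6.22 and 4.48 CPM in the DN rats. The groups did not overlap, although the lowest normal rat and the highest DN rat were almost level. Igf1 fell by 1.55 on the log2 scale (SE 0.35, edgeR adjusted p = 0.0194), which is 2.93-fold lower. The adjusted p rose to 0.0525 without DN replicate 2, 0.0585 without normal replicate 3 and 0.0609 without normal replicate 4, so the call rests on each of these rats.

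Igfbp1 was at 30.8, 56.2, 24.9 and 27.3 CPM in the normal rats. In DN rats it was at 53.0, 56.6, 69.1 and 59.0 CPM. Normal replicate 2 was the only normal rat in the DN range, so the groups overlapped. The fit gave 0.78 on the log2 scale (SE 0.24, edgeR adjusted p = 0.0456). It was 1.10 with an adjusted p of 0.00457 without normal replicate 2, and leaving out any of the other 7 rats lost the call, with adjusted p-values of 0.0686 to 0.125.

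Igfbp3, the main IGF carrier of the blood, was at 386.8, 318.1, 274.9 and 238.0 CPM in the normal rats. The DN values were 120.6, 139.7, 219.5 and 227.2 CPM. All DN rats were below all normal rats, with DN replicates 3 and 4 just below the lowest normal rat. Igfbp3 fell by 0.78 on the log2 scale (SE 0.23, edgeR adjusted p = 0.0424). The call stayed without DN replicate 3 or DN replicate 4 and was lost on leaving out any of the other 6 rats, with adjusted p-values of 0.0607 to 0.107.

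Igfbp1 and Igfbp3 are direct neighbours on chromosome 14, with 0 genes between them in the RefSeq annotation of GRCr8, and they were called in opposite directions. The promoters of the 4 called genes are shown because the insulin response sequence, the site through which insulin and FOXO factors act on Igfbp1, could be looked for in them. RefSeq windows of GRCr8 were matched for 9 of the 10 genes, and Irs2 was not matched. Each line gives the 250 bases before the start of the gene on the gene's own strand, with the insulin response core CAAAACA in capitals. The windows are chr14:86261027-86261276 on the plus strand for Igfbp1, chr7:24172282-24172531 on the plus strand for Igf1, chr14:86277945-86278194 on the minus strand for Igfbp3 and chr2:220976298-220976547 on the minus strand for Egf.
Igfbp1: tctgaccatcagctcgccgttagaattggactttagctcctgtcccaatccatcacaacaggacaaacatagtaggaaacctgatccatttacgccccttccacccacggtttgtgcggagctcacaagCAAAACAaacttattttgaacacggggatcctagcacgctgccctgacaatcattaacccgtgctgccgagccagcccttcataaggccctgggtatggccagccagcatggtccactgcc
Igf1: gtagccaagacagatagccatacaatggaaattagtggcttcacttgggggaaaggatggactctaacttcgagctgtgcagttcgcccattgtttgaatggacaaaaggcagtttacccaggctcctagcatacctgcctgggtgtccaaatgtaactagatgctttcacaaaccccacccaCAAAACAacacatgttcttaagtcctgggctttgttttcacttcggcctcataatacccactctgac
Igfbp3: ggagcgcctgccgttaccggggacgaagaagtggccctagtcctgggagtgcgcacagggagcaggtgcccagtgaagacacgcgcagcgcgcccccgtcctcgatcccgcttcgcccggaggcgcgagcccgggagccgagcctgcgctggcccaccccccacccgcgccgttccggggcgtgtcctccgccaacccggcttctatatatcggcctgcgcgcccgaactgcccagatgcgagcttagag
Egf: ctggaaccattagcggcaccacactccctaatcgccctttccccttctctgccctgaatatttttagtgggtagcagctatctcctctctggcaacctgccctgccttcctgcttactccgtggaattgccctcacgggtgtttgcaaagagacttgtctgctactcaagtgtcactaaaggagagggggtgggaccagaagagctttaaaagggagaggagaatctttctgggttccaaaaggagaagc

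The core, searched as CAAAACA and as TGTTTTG on the other strand, was found in 2 of the 9 windows. It lay 121 to 115 bases before the start of Igfbp1 and 67 to 61 bases before the start of Igf1, and 5.46% of all 33469 RefSeq promoter windows of this length held it. Igfbp1 rose and Igf1 fell in DN, so the 2 genes with the core moved in opposite directions. A forkhead core, GTAAACA or TGTTTAC, was found only before Insr, 100 to 94 bases upstream on the opposite strand, and 3.21% of all windows held it. A match of letters is a description and not a bound site.

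**Figure D1:**
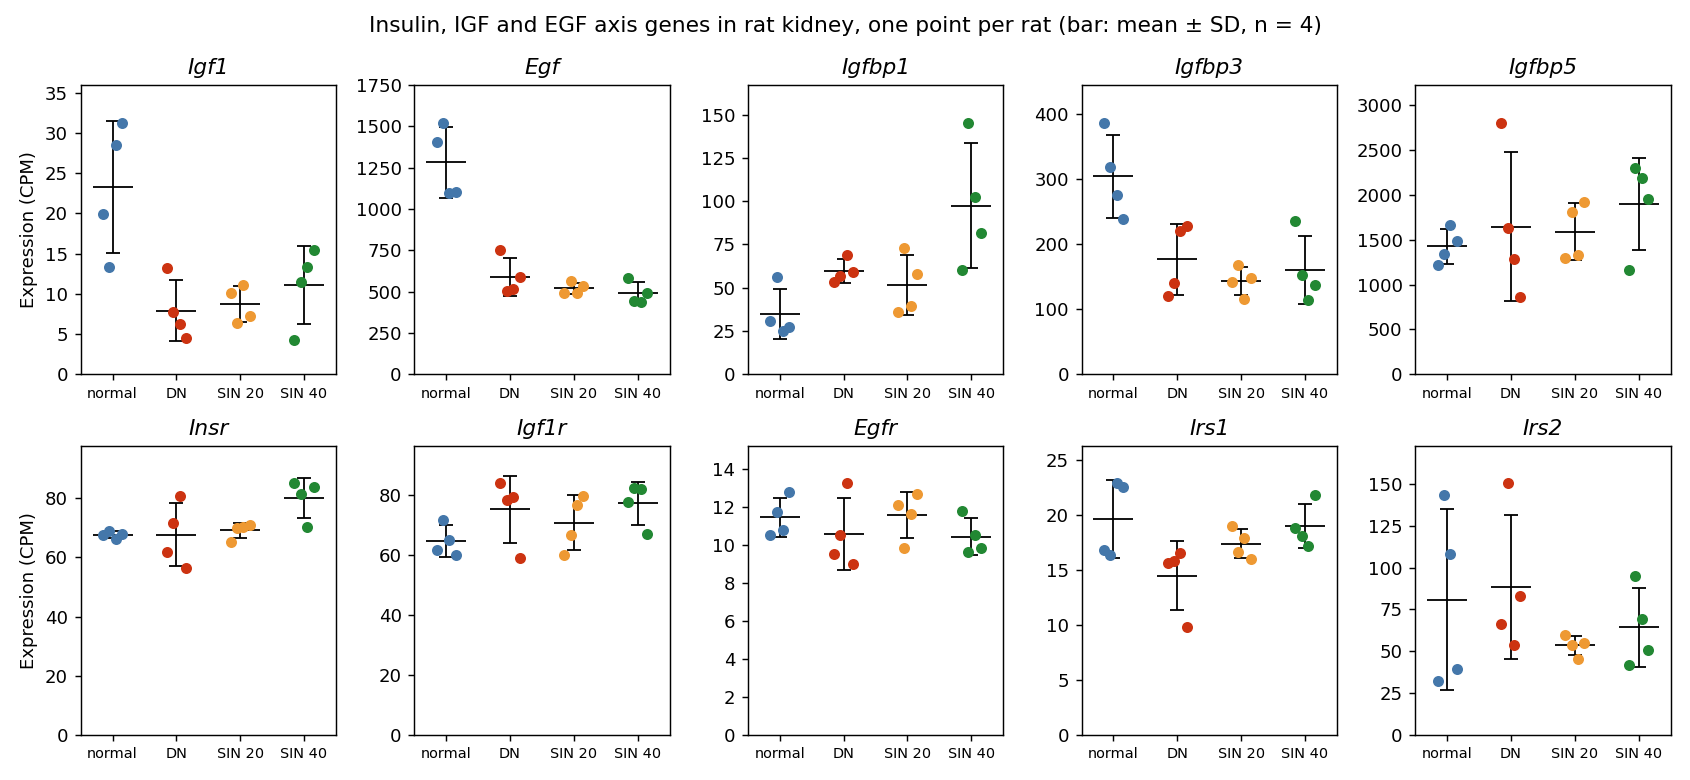
Level of each of the 10 genes in every rat, in CPM on linear axes that start at 0. Each point is 1 rat, and the bars are the mean and SD of the 4 rats of a group. Egf lies between 1098 and 1523 CPM in the normal rats and at most at 750.4 CPM in every other rat, while the points of Insr, Igf1r and Egfr overlap between the normal and DN groups.

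The third binding protein, Igfbp5, which attaches to extracellular matrix, had the widest spread in DN. Its normal rats were at 1213, 1340, 1664 and 1486 CPM. The DN rats were at 2808, 1634, 1282 and 864.6 CPM and so lay on both sides of the normal range. Its log2 fold change was 0.21 (SE 0.30, edgeR adjusted p = 0.641), and it was -0.17 without DN replicate 1.

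The insulin receptor gene Insr was level in the normal rats, at 67.6, 69.1, 66.1 and 67.9 CPM. It was at 61.9, 71.6, 80.7 and 56.5 CPM in DN. The log2 fold change was 0.00, with a 95% confidence interval of -0.24 to 0.25, so the DN rats scattered more widely around the same mean. Igf1r, the IGF-I receptor gene, was at 61.7, 71.7, 65.1 and 59.8 CPM in normal rats and at 83.7, 78.3, 79.4 and 58.9 CPM in DN rats. Its log2 fold change was 0.22 (SE 0.12, edgeR adjusted p = 0.198), with DN replicate 4 below all the normal rats and the other 3 DN rats above them. Without DN replicate 4 it was 0.32 with an adjusted p of 0.0457.

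Egfr, which encodes the receptor of EGF, was at 10.5, 11.7, 10.8 and 12.8 CPM in the normal rats. In DN rats the values were 9.52, 10.5, 13.2 and 9.0 CPM. The groups overlapped, with a log2 fold change of -0.11 and a 95% confidence interval of -0.45 to 0.23. A change of Egfr of the size seen for its ligand Egf lies outside that interval.

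Irs1 was at 16.8, 16.3, 22.9 and 22.5 CPM in normal rats and at 15.7, 15.8, 16.6 and 9.81 CPM in DN rats. Only the highest DN rat reached the lowest normal rat. Its log2 fold change was -0.44 (SE 0.19), with an unadjusted p of 0.0439 and an edgeR adjusted p of 0.125. Irs2 varied widely from rat to rat, at 32.5, 143.6, 107.9 and 39.1 CPM in the normal group and 66.3, 150.3, 53.7 and 83.0 CPM in the DN group. The fit gave Irs2 a log2 fold change of 0.13, with a 95% confidence interval of -0.95 to 1.21.

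Against DN, neither dose of SIN had a called gene among the 10, and edgeR called 0% of the 15724 genes tested at 20 mg/kg and 0% of the 15530 tested at 40 mg/kg. This comparison asks whether SIN moved the genes of diabetic kidneys. DESeq2 also called 0 of the 10 genes at either dose, while over all genes it called 221 at 20 mg/kg and 436 at 40 mg/kg. At an unadjusted p under 0.05 edgeR had 1 of the 10 genes at 20 mg/kg and 2 at 40 mg/kg, beside 15.4% and 17.1% of all genes. At 20 mg/kg 0 of the 10 had groups that did not overlap, beside 8.99%. Both SIN comparisons share the 4 DN rats with each other and with the DN over normal comparison.

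Egf stayed low in both SIN groups. It was at 491.2, 561.1, 493.7 and 534.5 CPM at 20 mg/kg and at 583.9, 444.7, 437.2 and 489.9 CPM at 40 mg/kg. The log2 fold changes over DN were -0.18 with a 95% confidence interval of -0.49 to 0.12 and -0.27 with an interval of -0.60 to 0.07. A return to the normal level would be a log2 fold change of about the size lost in DN, and both intervals end below it. Umod was at 1229 to 1400 TPM at 20 mg/kg and at 987.0 to 1170 TPM at 40 mg/kg, inside the DN range. The other 7 markers of the same segments summed to between 765.9 and 882.7 TPM and between 765.3 and 1336 TPM, which overlapped the normal range at both doses. Of the 7 markers tested against normal, Umod among them, edgeR called 2 lower at 20 mg/kg, beside 6.36% of all genes. At 40 mg/kg it called 1 higher and 1 lower, beside 5.97%.

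Igf1 was at 10.1, 6.40, 11.1 and 7.29 CPM at 20 mg/kg and at 4.28, 11.5, 13.3 and 15.5 CPM at 40 mg/kg. The 40 mg/kg group spanned the whole DN range, with 1 rat below it and 2 above it. The log2 fold change over DN was 0.13 at the lower dose, with a 95% confidence interval of -0.57 to 0.84, and 0.49 at the higher dose, with an interval of -0.42 to 1.41.

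Igfbp1 had the highest single values in the SIN (40 mg/kg) group, at 60.5, 145.3, 102.3 and 81.7 CPM. At 20 mg/kg it was at 35.9, 72.9, 39.2 and 58.0 CPM. Over DN the log2 fold change was 0.71 at 40 mg/kg, with a 95% confidence interval of 0.20 to 1.23, an unadjusted p of 0.0115 and an edgeR adjusted p of 0.209. It was 0.44 without SIN40 replicate 2, the highest of these rats. At 20 mg/kg the log2 fold change was -0.21, with an interval of -0.68 to 0.26. Between the doses the difference was 0.91 (SE 0.29), with an unadjusted p of 0.00946 and an edgeR adjusted p of 0.961, so it did not pass the correction over all genes.

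Igfbp3 was at 141.3, 167.3, 114.9 and 148.5 CPM at 20 mg/kg and at 235.1, 152.9, 114.0 and 137.6 CPM at 40 mg/kg, both within or below the range of the DN rats but for SIN40 replicate 1. Its log2 fold change over DN was -0.31 at 20 mg/kg, with a 95% confidence interval of -0.79 to 0.16, and -0.15 at 40 mg/kg, with an interval of -0.73 to 0.44. Igfbp5 was at 1297, 1809, 1335 and 1921 CPM and at 1160, 2296, 2187 and 1956 CPM at the 2 doses, inside the DN range in all 8 rats.

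Among the receptors, Insr was at 65.3, 70.0, 70.2 and 71.1 CPM at 20 mg/kg and at 85.1, 81.4, 70.5 and 83.8 CPM at 40 mg/kg. In 3 of the 4 SIN (40 mg/kg) rats it was above all other rats of the study. The log2 fold change at 40 mg/kg was 0.24 over DN (SE 0.12, edgeR adjusted p = 0.338) and 0.21 over 20 mg/kg (SE 0.09, unadjusted p = 0.0356, edgeR adjusted p = 0.961). Igf1r ran from 59.99 to 79.5 CPM at 20 mg/kg and from 67.0 to 82.2 CPM at 40 mg/kg, and Egfr from 9.86 to 12.7 CPM and from 9.61 to 11.8 CPM. Both overlapped the DN rats at both doses.

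For Irs1, all SIN (40 mg/kg) rats, at 18.8, 18.1, 17.2 and 21.8 CPM, were above all DN rats. It was the only one of the 10 genes whose SIN (40 mg/kg) and DN rats did not overlap, beside 10.4% of all genes. The log2 fold change was 0.39 (SE 0.17, unadjusted p = 0.0466, edgeR adjusted p = 0.286), and it was 0.24 without DN replicate 4, the lowest DN rat. Irs1 at 20 mg/kg was at 19.0, 16.6, 17.9 and 15.99 CPM, with a log2 fold change of 0.26 (SE 0.17, edgeR adjusted p = 0.448).

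Irs2 was narrow in the SIN (20 mg/kg) group, at 59.5, 53.9, 45.6 and 55.2 CPM, and wider at 40 mg/kg, at 41.9, 95.2, 69.5 and 50.6 CPM. Over DN the log2 fold change was -0.72 at 20 mg/kg (SE 0.27, unadjusted p = 0.0246, edgeR adjusted p = 0.29), and it was -0.35 without DN replicate 2. At 40 mg/kg it was -0.46 with a 95% confidence interval of -1.21 to 0.30. Between the doses edgeR called 0 of the 10 genes, beside 0.00639% of all 15657 tested, with 2 of the 10, Insr and Igfbp1, at an unadjusted p under 0.05 beside 4.98% of all genes, and 0 called by DESeq2. All 10 genes overlapped between the doses, where 3.31% of all genes did not.

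**Figure D2:**
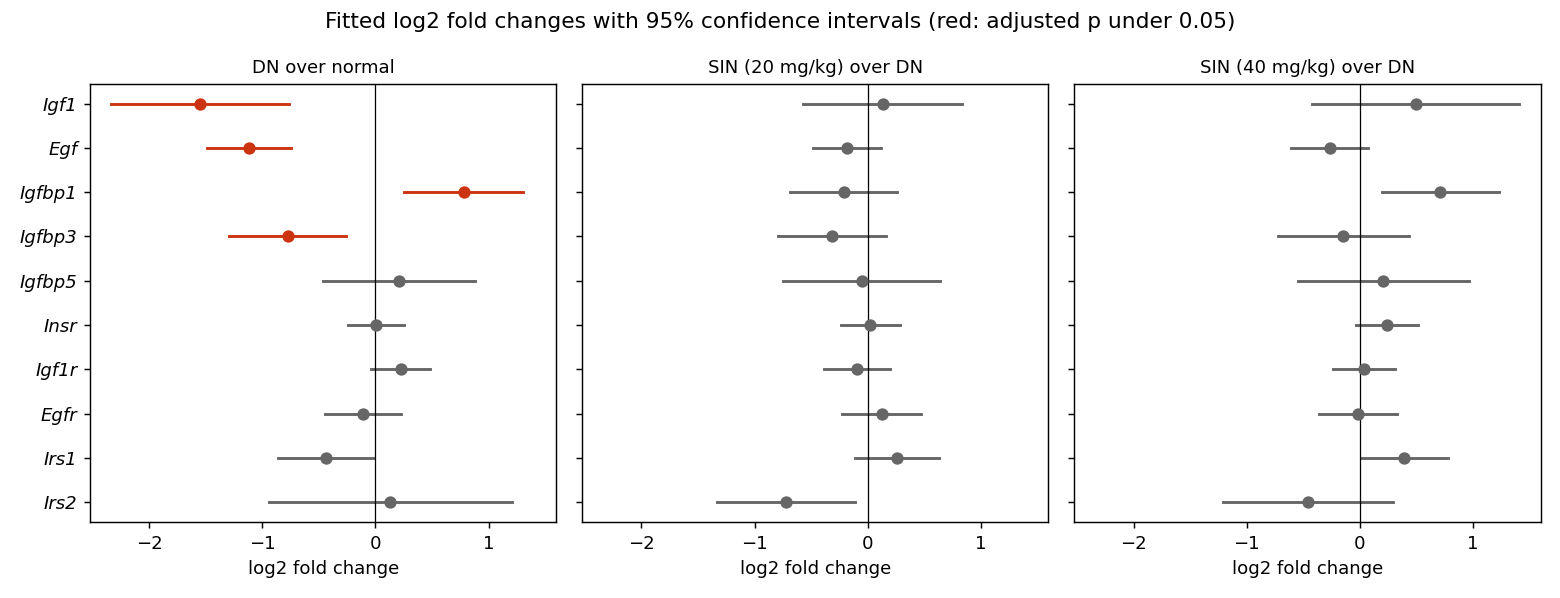
Fitted log2 fold change of each gene in 3 comparisons, with the 95% confidence interval as a horizontal line and calls in red. In DN over normal Igf1, Egf and Igfbp3 lie left of 0 and Igfbp1 right of it. No gene is red in either SIN comparison, where the interval of Egf ends at 0.12 and 0.07.

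Set against the normal rats, the same loss of Egf stood in both SIN groups. Egf had a log2 fold change of -1.31 at 20 mg/kg (SE 0.13, edgeR adjusted p = 0.000731) and -1.39 at 40 mg/kg (SE 0.15, edgeR adjusted p = 0.000787). All SIN rats of both doses were below all normal rats. These comparisons share the normal rats with the DN comparison. At 20 mg/kg 3 of the 10 genes were called, all lower, beside 6.36% of all genes, with 3.58% lower and 2.77% higher. The same 3 did not overlap and were the only ones at an unadjusted p under 0.05, beside 13.7% and 20.8% of all genes. The other two were Igf1 at -1.42 (SE 0.27, edgeR adjusted p = 0.0143) and Igfbp3 at -1.09 (SE 0.17, edgeR adjusted p = 0.00523).

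At 40 mg/kg 3 of the 10 genes were called against normal, 2 lower and 1 higher, beside 5.97% of all genes, with 3.69% lower and 2.28% higher. Of the 10, 4 did not overlap and 6 were at an unadjusted p under 0.05, beside 14.3% and 22.9% of all genes. Igfbp1 was at 1.48 (SE 0.31, edgeR adjusted p = 0.0206) with no overlap between the groups. That call was lost on leaving out SIN40 replicate 2 or 3 or normal replicate 1, 3 or 4, with adjusted p-values of 0.057 to 0.0749. Igfbp3 was at -0.93 (SE 0.23, edgeR adjusted p = 0.0392) and lost its call without SIN40 replicate 2, 3 or 4 or normal replicate 1, 2 or 3, with adjusted p-values of 0.0682 to 0.113. Igf1 was at -1.07 (SE 0.36, edgeR adjusted p = 0.117) and overlapped the normal rats, and DESeq2 gave it an adjusted p of 0.0243. Insr, at 0.24 (SE 0.08, edgeR adjusted p = 0.114), was higher in every SIN (40 mg/kg) rat than in every normal rat.

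Per length, in TPM, the order of the genes changed in DN. In normal rats Igfbp5 led at 1365 ± 240 TPM, followed by Egf at 534.9 ± 73.8 TPM and Igfbp3 at 194.1 ± 33.7 TPM (SD, n = 4), and the ranges of these did not overlap. Igf1 came next at 46.9 ± 17.8 TPM, in a range that overlapped that of Igfbp1 at 35.0 ± 14.1 TPM. The receptors were low, with Igf1r at 24.3 ± 2.13, Insr at 15.0 ± 0.50 and Egfr at 4.25 ± 0.45 TPM. Irs2 at 19.3 ± 12.9 TPM overlapped both Igf1r and Insr, and Irs1 at 5.69 ± 1.24 TPM overlapped Egfr. In DN rats Igf1 was at 15.1 ± 7.74 TPM, in rank 7, overlapping Irs2 and Insr, while Igfbp1 at 56.4 ± 7.13 TPM was in rank 4 and did not overlap the next gene, Igf1r. These levels use the deposited gene lengths, and that of Igf1 is only 772 bases.

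Around the group means, Igf1 and Igfbp3 moved against each other. Over the 16 rats, each taken as its deviation from its group mean of log2 CPM, Pearson's r was -0.86 (permutation p = 0.00061, adjusted 0.0274 over 45 pairs of the 10 genes) and Spearman's rho was -0.89 (permutation p = 0.00016, adjusted 0.0072). Without SIN40 replicate 1 and normal replicate 2, the rats farthest out in Igf1, r was -0.87. It was the only one of the 45 pairs past the correction. Both genes nevertheless fell from normal to DN, so the relation between rats of a group ran opposite to that between the groups. Among the DN rats the order of Igf1 was exactly the reverse of that of Igfbp3.

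Some of the genes also varied between rats with markers of the collecting duct, a tubule that runs into the medulla. The list, Aqp2, Aqp3, Aqp4, Slc14a2, Scnn1g and Fxyd4, was chosen after values had been seen, so its correlations carry no test. Its sum ran from 174.5 to 529.7 TPM in normal rats, from 301.6 to 1031 in DN, from 551.8 to 914.4 at 20 mg/kg and from 515.7 to 1101 at 40 mg/kg. Over the 16 deviations from the group means, r with this sum was 0.81 for Igfbp5, -0.71 for Igfbp3, 0.65 for Igf1r and 0.57 for Irs2. It was 0.45 for Igf1, 0.40 for Irs1, 0.37 for Igfbp1, 0.12 for Insr, 0.03 for Egfr and -0.10 for Egf. All points share their libraries, and the part of the tissue sampled in these differences was not tested.

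**Figure D3:**
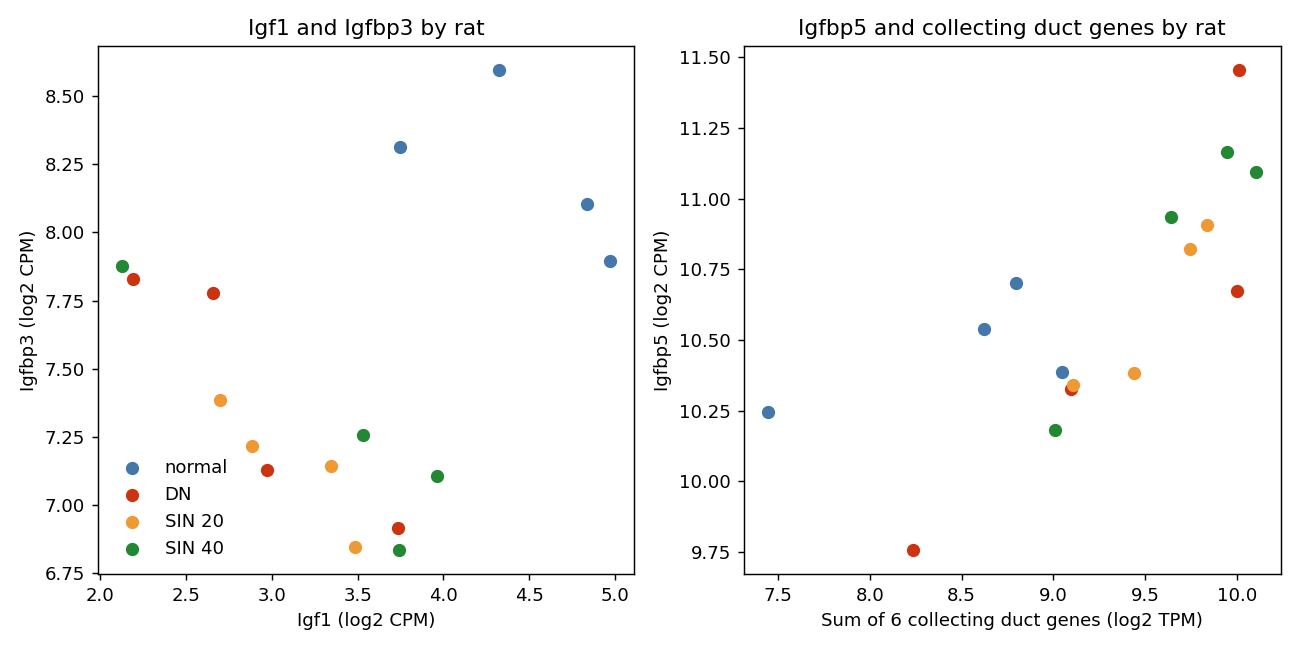
Igf1 against Igfbp3 and Igfbp5 against the collecting duct sum, 1 point a rat on log2 scales, coloured by group. Inside a group the rats with more Igf1 mostly have less Igfbp3, with the normal rats highest in Igfbp3, and the DN rat with the lowest collecting duct sum, 301.6 TPM, has the lowest Igfbp5.

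The genes most like each member, by Pearson's r of the same deviations over 16 rats and among 16404 genes, are given as a description, since the highest of so many values is high by selection. For Egf they were LOC108348190 at 0.92, Nfu1 at 0.87 and ST7 at 0.86. For Igf1 they were Aspn, which encodes the matrix protein asporin, at 0.93, Acbd3 at 0.93 and Cfap65 at 0.92. Igfbp1 was closest to Rgl2 at 0.93, Cyth2 at 0.87 and Pim1 at 0.86. Igfbp3 was closest to Acss1 at 0.93, to Adtrp at 0.91 and to Dpep1, a dipeptidase of the proximal tubule brush border, at 0.89. Igfbp5 was closest to Rcn3, P3h4 and Plet1, all at 0.95.

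Irs1 was most like Pdgfra, a receptor of interstitial fibroblasts, at 0.91, Chaf1b at 0.89 and Styx at 0.89. Irs2 was most like Slfn2 at 0.87, Cd3e, a chain of the T cell receptor complex, at 0.81, and Gimap5, a lymphocyte GTPase, at 0.81. The leukocyte markers summed to between 27.9 and 51.7 TPM in the normal rats and between 32.4 and 46.2 TPM in DN, and their part in the spread of Irs2 was not tested. Insr was most like Usp48 at 0.90, Nup155 at 0.85 and Slc1a3 at 0.84, Igf1r like Phrf1 at 0.91, Igsf8 at 0.90 and Lama5 at 0.88, and Egfr like Txndc16 at 0.83, Nrde2 at 0.83 and Akap6 at 0.78.

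Other genes of the same pathways were described by fixed lists, beside the 19.5% called among all genes between DN and normal. Of the other insulin and IGF ligands and receptors 3 were tested and 0 were called by edgeR, with 0 at an unadjusted p under 0.05. Ins1 and Ins2, the rat insulin genes, were too low to test. Among 9 other IGF binding proteins and their proteases 1 rose and 2 fell. Stc2, a stanniocalcin that blocks the protease PAPP-A, was at 1.82, 2.42, 3.60 and 3.16 CPM in normal rats and at 10.8, 6.37, 6.84 and 5.48 CPM in DN rats, higher in all 4 (log2 fold change 1.43, SE 0.28, edgeR adjusted p = 0.013).

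The genes of this list that fell were Pappa2 and Igfbp4. Pappa2, a protease that cuts IGF binding proteins, was at 7.96, 6.39, 1.67 and 2.80 CPM in normal rats and at 0.71, 0.71, 1.30 and 1.71 CPM in DN rats, which overlapped (log2 fold change -2.07, SE 0.52, edgeR adjusted p = 0.026). Igfbp4 was at 147.9, 126.0, 74.8 and 100.6 CPM in normal rats and 20.9, 24.7, 38.1 and 82.6 CPM in DN rats, with DN replicate 4 above the lowest normal rat (-1.43, SE 0.41, edgeR adjusted p = 0.0385).

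In the growth hormone axis 1 of 5 genes fell. It was Ghr, the growth hormone receptor, from 129.0 to 159.6 CPM in normal rats to between 75.9 and 110.1 CPM in DN rats (-0.55, SE 0.13, edgeR adjusted p = 0.0241). Of 30 insulin signalling genes 3 rose and 7 fell, and their median log2 fold change was -0.05. Rictor, a subunit of the kinase complex mTORC2, was at 20.6 to 30.2 CPM in normal rats and at 11.3 to 16.1 CPM in DN rats (-0.84, SE 0.16, edgeR adjusted p = 0.011). Grb10, an adaptor that holds back the insulin receptor, fell by 0.75 on the log2 scale (SE 0.17, edgeR adjusted p = 0.0181). Rps6kb1, the kinase S6K1, was at -0.63 (SE 0.17, edgeR adjusted p = 0.0337). All 3 were lower in every DN rat than in every normal rat, and Grb10 is known to hold the insulin signal back, while mTORC2 is known to carry it on.

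Of 10 known FOXO target genes 1 rose and 1 fell. Pdk4, a kinase that turns off pyruvate dehydrogenase, was at 29.1, 18.5, 25.4 and 23.8 CPM in normal rats and at 11.7, 12.7, 8.63 and 4.86 CPM in DN rats (-1.35, SE 0.27, edgeR adjusted p = 0.0135). Klf15, a transcription factor of fasting metabolism, rose from between 58.0 and 81.1 CPM to between 96.0 and 135.6 CPM (0.71, SE 0.14, edgeR adjusted p = 0.0128). The 10 targets had a median log2 fold change of -0.30 beside 0.00 for all genes. At an edgeR unadjusted p under 0.05 there were 6 of the 10, beside 36.9% of all genes. The activity of FOXO factors was not tested.

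The other EGF ligands and receptors also moved in both directions. Of 6 other EGF family ligands tested 1 rose, Nrg1, which encodes a neuregulin that binds ERBB3 and ERBB4. It was at 21.4, 21.1, 16.8 and 20.3 CPM in normal rats and at 44.6, 56.2, 47.0 and 38.0 CPM in DN rats (1.23, SE 0.13, edgeR adjusted p = 0.00265). Of 12 ERBB receptors and regulators 1 rose and 1 fell. Erbb2, the ERBB receptor without a ligand of its own, was at 49.9, 47.1, 52.1 and 61.6 CPM in normal rats and at 90.9, 98.9, 133.7 and 109.1 CPM in DN rats (1.04, SE 0.14, edgeR adjusted p = 0.00387). Erbb4 was at 16.7, 16.7, 31.5 and 28.8 CPM in normal rats and at 14.7, 13.1, 11.4 and 10.1 CPM in DN rats (-0.92, SE 0.23, edgeR adjusted p = 0.0265). Of the 75 genes tested in these 7 lists edgeR called 0 in either SIN over DN comparison, with 12 at an unadjusted p under 0.05 at 20 mg/kg and 15 at 40 mg/kg, beside 15.4% and 17.1% of all genes.

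**Figure D4:**
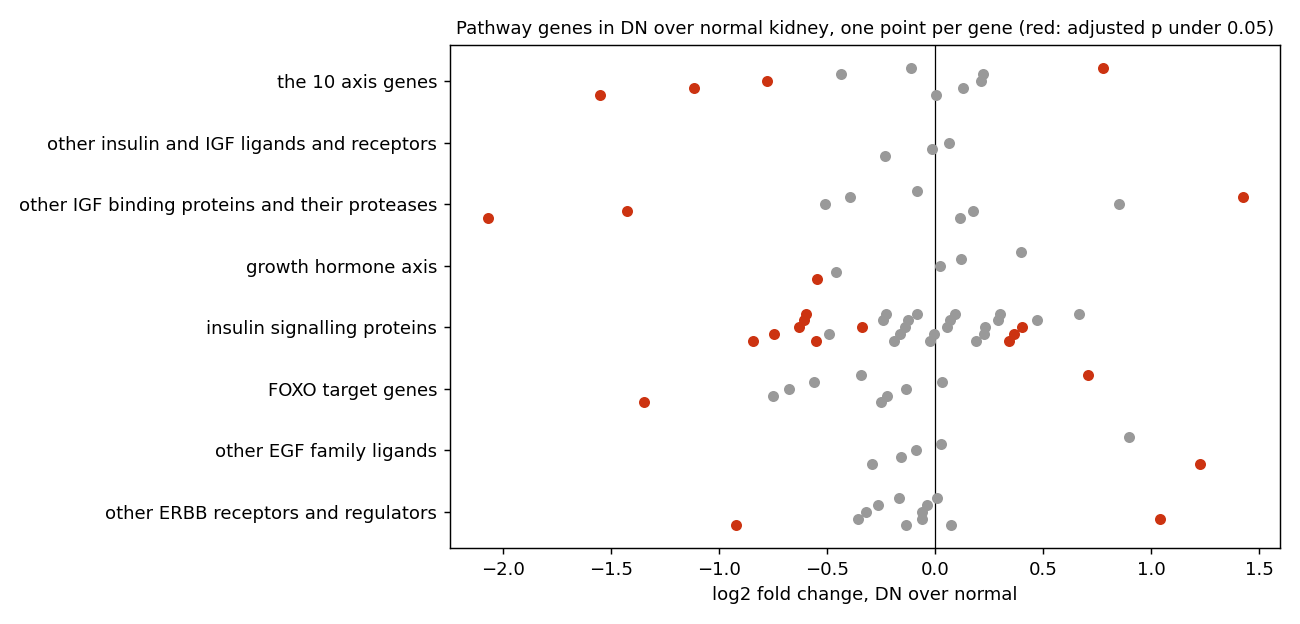
Log2 fold change in DN over normal of the 10 axis genes and of 7 other lists of their pathways, 1 point a gene, with calls in red. Most points lie near 0, and the called genes of the lists stand on both sides of it, from Pappa2 at -2.07 to Stc2 at 1.43.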

How the data were processed

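Kidneys of 16 rats were sequenced, 4 per group. The authors trimmed the reads with SeqPrep and Sickle, aligned them to the rat genome with TopHat and deposited a table of estimated counts for 35849 genes. The submitters' processing notes also name Bowtie, RSEM and edgeR, without versions, and the step that assigned reads to genes is not given in the sources used here. Of the nonzero values 74.3% were whole, and all were rounded before testing. Each column was matched to a sample through the number in that sample's description, and 4 columns that match no sample were not used. Whether the rats of a group came from separate cages or litters is not stated, and each rat counts as 1 replicate.

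Counts were tested by the quasi-likelihood test of edgeR 4.0.16 (two-sided, TMM, filterByExpr, 8 rats a fit), with the Benjamini-Hochberg adjustment over all genes tested. The standard error is the absolute log2 fold change divided by the square root of the F statistic. CPM used TMM factors over the 16 rats, log2 CPM added a prior count of 2, and TPM used the gene lengths of the table. Deviations from group means were correlated over 16 rats, with 100000 permutations within groups. The genes named are the 10 members, up to 4 called genes of each pathway list with the largest change in DN over normal, and the 3 genes most like each member. Of the genes within this rule, 1 is not reported here. The members and the lists were chosen with earlier results of these data known. Umod and LOC108348190 were chosen after their values were seen, and so was the collecting duct list. Alternatives were DESeq2 1.42.0, RLE scaling, dropping the filter, a minimum of 10 counts per rat, 1 fit over all 16 rats, the replicate number as a block, and fits that left out 1 rat. The steps were tested on simulated data. Analyses ran in R 4.3.3 and Python 3.11.15.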

Additional observations from a re-analysis of the deposited data

Results flagged for a closer look

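Irs1 in DN replicate 4, at 9.809 CPM, lay far below the other 3 DN rats, which ran from 15.67 to 16.55 CPM. The gap was 0.869 of the whole range of the group, above Dixon's 95% critical value for 4 values. It was the only flag among 40 groups of 4 rats checked, where chance gives about 2. Without this rat the log2 fold change of Irs1 in DN over normal was -0.29 (SE 0.16, edgeR adjusted p = 0.201) in place of -0.44, and in SIN (40 mg/kg) over DN it was 0.24 (SE 0.12, edgeR adjusted p = 0.359) in place of 0.39.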

How the results depend on the processing

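With 4 rats a group, the confidence intervals given limit what each comparison can show. Egf kept its call in DN over normal under every alternative, with adjusted p-values of 7.26e-09 to 0.0254. No member was called in SIN (20 mg/kg) over DN, SIN (40 mg/kg) over DN or SIN (40 mg/kg) over SIN (20 mg/kg) under any alternative. The cause was not tested for any of the changes that follow.

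In DN over normal, 1 to 4 members and 769 to 3781 of all genes were called with 1 rat left out. Igfbp1 had an adjusted p of 0.067 with all 16 rats in 1 fit. Over all genes, DESeq2 called 221 in SIN20 over DN, 436 in SIN40 over DN, 17 in SIN40 over SIN20, 1726 in SIN20 over normal and 1761 in SIN40 over normal, where edgeR called 0, 0, 1, 1009 and 940. In SIN20 over DN no filter gave 2, at least 10 counts gave 2 and all 16 rats in 1 fit gave 13, and the last gave 8 in SIN40 over DN and 0 in SIN40 over SIN20. With 1 rat left out, all genes called ran from 0 to 4 in SIN40 over DN, from 0 to 5 in SIN40 over SIN20, from 551 to 1230 in SIN20 over normal and from 462 to 1016 in SIN40 over normal, where 1 to 4 members were called. Igfbp5 was called in SIN40 over normal without SIN40 replicate 1 (0.58, edgeR adjusted p = 0.0343).

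Same-numbered rats did not deviate together, with correlations between -0.239 and 0.244 and no comparison in which all 4 numbers passed 0.1, so the numbers are not taken as pairs. With the replicate number as a block, 1 member, Egf, was called in DN over normal, 1325 genes were called in DN over normal and 0 in SIN40 over SIN20. Each rat was closest to its own number in at most 2 of 4 numbers.

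None of the log2 fold changes that changed sign was of a gene called in that same comparison. Insr in DN over normal was -0.0024 with at least 10 counts and -0.0083 under the block, and Igfbp5 in SIN20 over DN was 0.0571 under the block. With 1 rat left out, DN over normal ran from -0.0928 to 0.0778 for Insr, from -0.17 to 0.42 for Igfbp5 and from -0.24 to 0.55 for Irs2. SIN20 over DN ran from -0.26 to 0.33 for Igfbp5, from -0.0608 to 0.49 for Igf1 and from -0.0508 to 0.12 for Insr. SIN40 over DN ran from -0.0614 to 0.0961 for Igf1r, from -0.0894 to 0.11 for Egfr and from -0.006 to 0.57 for Igfbp5. SIN40 over SIN20 ran from -0.0894 to 0.29 for Igfbp3. Against normal, SIN20 ran from -0.031 to 0.085 for Egfr, and SIN40 from -0.59 to 0.0991 for Irs2 and from -0.13 to 0.0289 for Irs1.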
